A study of Mus musculus with 4 samples.

Results

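The genes described here are 32 that astrocytes express in the central nervous system. They cover amino acid uptake, intermediate filaments, lipid and folate metabolism, ion and water channels, surface proteins, secreted proteins and metal binding. They were chosen by name, by a rule that uses no measured value but with earlier results of these data known, and are 32 of the 22096 gene symbols in the deposited expression tables. RNA was sequenced from whole mouse spinal cord at postnatal day 8, in 2 control libraries (Chd7f/+; Olig1-cre) and 2 conditional knockout libraries (cKO, Chd7f/f; Olig1-cre), all of mixed strain background. The study concerns the chromatin remodeler CHD7 and the transcription factor Sox10 in myelination. Olig1, a gene of oligodendrocyte precursors and their progeny, drove the Cre recombinase. Which cells recombined, and whether astrocytes were among them, cannot be read from these libraries. The controls carried the same Cre with 1 floxed Chd7 allele, so no library here comes from cord without Cre. The labels do not say whether the libraries of a group came from separate animals, so every p-value measures only the spread between these libraries. That spread may be technical in the control pair. The cKO libraries differ in the sex-linked genes Ddx3y and Xist (values below), so they are not repeats of the same RNA.

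Astrocytes clear glutamate, GABA and potassium released by neurons, pass water and metabolites between blood and neural tissue, and turn glutamate into glutamine that neurons take up again. They arise from radial glia, share early regulators with the oligodendrocyte lineage, and in the spinal cord fall into fibrous cells rich in GFAP in white matter and protoplasmic cells in grey matter. When neural tissue is injured or inflamed, astrocytes become reactive and raise GFAP, vimentin and a set of secreted and stress proteins.

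Levels are FPKM, fragments scaled to transcript length and library size, summed over the transcripts of a gene. Relative sequencing depth ran from 1.0 in control 2 to 3.19 in cKO 2. The tissue label was checked against position genes: Hoxb8, a trunk patterning gene, lay between 83.5 and 109 FPKM, while Emx1, a gene of the cerebral cortex, lay at or below 0.0781 FPKM. Chd7 itself measured 3.52 and 3.12 FPKM in the control pair, against 2.52 and 3.38 FPKM in the cKO pair, so its groups overlapped and the level of the whole gene does not check the labels. The libraries also differed in genes outside the comparison. Ddx3y, a Y-linked gene, was at 11.6 FPKM in cKO 2 and at or below 0.195 FPKM in the other 3 libraries. Xist measured 55.6 and 51.8 FPKM in the control pair, but 19.6 FPKM in cKO 1 and 0.233 in cKO 2. By these genes sex may not be balanced between the groups, and its part in the results was not tested. The 10 meningeal markers summed to 281 FPKM in control 1 and to 37.5 to 62.7 FPKM in the other libraries.

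All 32 genes had a mean of at least 1 FPKM and were tested with limma on log2(FPKM + 1) over 12913 gene sums, with p-values adjusted over all of them by the Benjamini-Hochberg method. Fold changes are on this scale, which understates the change of low genes, and are given as cKO minus control with the standard error. At an adjusted p under 0.05, Slc1a3, Gpc5 and Mt2 rose, Slc7a11 and Kcnj10 fell, and 27 genes did not pass. The 3 that rose are 9.38% of the list, against 4.13% of all genes tested, and the 2 that fell are 6.25%, against 6.54%. The share that fell is thus near the background, and the share that rose rests on 3 genes. In bulk tissue, fewer cells of a type and less RNA per cell cannot be told apart. With low genes not filtered, with short transcripts included in the gene sums, or with transcripts tested singly, none of the 32 passed; limma then gave 9, 9 and 10 genes an unadjusted p under 0.05, beside 18.3%, 18.9% and 14.9% of all genes tested. In the analysis reported here 11 of the 32 had one (34.4%), against 24.2% of all genes tested.

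The groups did not overlap for 21 of the 32 genes. In 15 genes both cKO libraries lay above both controls, 46.9% against 24.3% of all genes tested. In 6 genes both lay below, 18.8% against 29.3%. The median log2 fold change of the 32 was 0.23, against −0.0028 for all genes tested. Of the 32, 22 genes had a fold change above 0, beside 6392 of the 12913 genes tested. The median was 0.068 under quantile scaling and 0.13 without control 1. The summed level of the 32 genes was 6714 and 7949 FPKM in the control pair, against 7844 and 8222 FPKM in the cKO pair, and these ranges overlap. In abundance, 16 genes had a mean above 100 FPKM, led by Cst3 at 1521 to 2363 FPKM, and 3 (Slc7a11, Dio2 and Nes) had a mean under 5 FPKM.

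**Figure D1:**
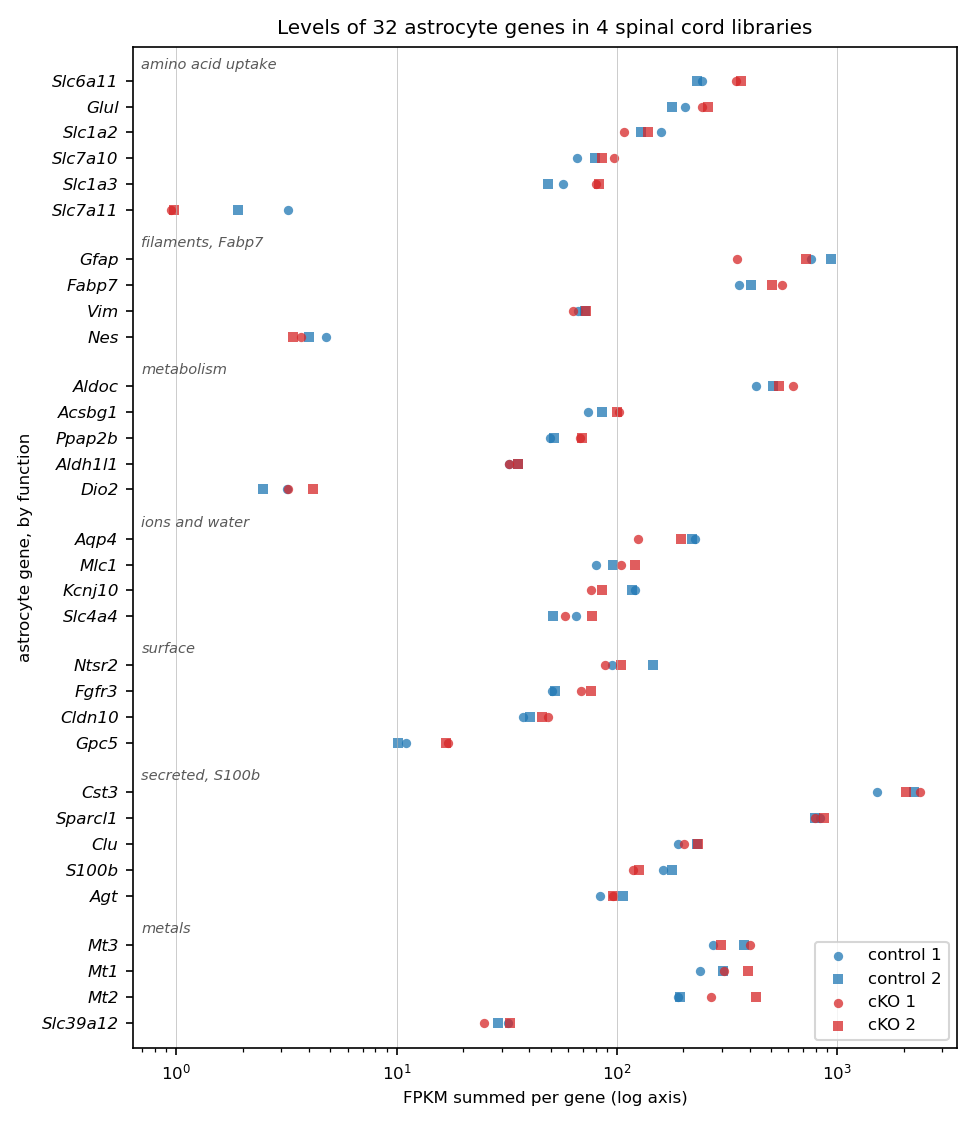
FPKM summed per gene (log axis) of the 32 astrocyte genes in control 1, control 2, cKO 1 and cKO 2, grouped by function; each point is 1 library. Slc1a3, Slc6a11, Gpc5 and Mt2 have both cKO points to the right of both control points, and Slc7a11, Kcnj10, Aqp4 and S100b have both to the left.

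Among the 6 genes of amino acid uptake and glutamine synthesis, 1 rose, 1 fell and 4 did not pass, with a median log2 fold change of 0.36. Slc1a3 (chr15:8584124-8660807 on mm9) encodes GLAST, the glutamate transporter that astrocytes carry from their radial glial origin. It measured 57.1 and 48.7 FPKM in the control pair, against 80.2 and 83.0 FPKM in the cKO pair. The cKO values lay close together and above both controls, at means of 81.6 ± 2.03 against 52.9 ± 6.0 (SD, n = 2 each). Slc1a3 rose by 0.62 ± 0.18, or 1.54-fold (adjusted p = 0.0160). Slc1a2 (chr2:102498840-102630941), which encodes GLT-1, the main glutamate transporter of mature astrocytes, measured 158 and 128 FPKM in the control pair, against 108 and 139 FPKM in the cKO pair. Here the groups overlapped, with the lowest value in cKO 1, and the fold change was −0.22 ± 0.20 (adjusted p = 0.548, 95% interval −0.62 to 0.18). The ratio of Slc1a3 to Slc1a2, chosen after the values were seen, was 0.361 and 0.379 in the controls and 0.744 and 0.597 in the cKO libraries. The groups do not overlap in this ratio, and the smallest exact 2-sided permutation p for 2 libraries against 2 is 0.333.

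Slc6a11 encodes GAT-3, the GABA transporter of astrocytes. Its level was 242 and 231 FPKM in the control pair, against 345 and 365 FPKM in the cKO pair. Both cKO libraries stood above both controls, and the difference of 0.58 ± 0.22 missed the threshold (adjusted p = 0.0863). Glul, glutamine synthetase, which astrocytes and oligodendrocytes both express, measured 204 and 178 FPKM in the control pair, against 244 and 259 FPKM in the cKO pair. Its groups did not overlap either, and its 0.40 ± 0.21 missed the threshold (adjusted p = 0.248). Slc7a10, the transporter Asc-1 for small neutral amino acids, measured 65.9 and 79.2 FPKM in the control pair, against 96.5 and 85.1 FPKM in the cKO pair. The gap between the highest control and the lowest cKO library was small, and the fold change was 0.32 ± 0.18 (adjusted p = 0.280).

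Slc7a11 (chr3:50168858-50247535) encodes xCT, which imports cystine in exchange for glutamate. It was the least abundant of the 32 genes, at 3.21 and 1.91 FPKM in the control pair, against 0.942 and 0.981 FPKM in the cKO pair. Both cKO libraries lay below both controls, and the controls differed from each other more than the cKO libraries did. Slc7a11 fell by 0.84 ± 0.17, or 1.78-fold (adjusted p = 6.05e-04), and with a pseudocount of 0.1 in place of 1 the fold change was −1.28. Control 1, which holds the highest Slc7a11 level, is also the library with the highest meningeal markers. Of the 9 meningeal markers tested, 7 fell, and 3 of 7 tested did so without control 1, 9 of 9 without control 2 and 1 of 9 under quantile scaling. None of the 10 was at 0 in any library, and their sum was 62.7 to 281 FPKM in the controls and 37.5 to 40.6 FPKM in the cKO libraries. Without control 1 the level of Slc7a11 was still lower in the cKO pair, by 0.57. Control 2 also had a higher meningeal sum than either cKO library. The part of meningeal tissue in the Slc7a11 result was not tested.

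Among 4 genes of ion and water handling, 1 fell and 3 did not pass. Their median was −0.15, but 0.11 without cKO 1 and −0.31 without cKO 2. Kcnj10 (chr1:174271341-174304216) encodes Kir4.1, the inward rectifier potassium channel of astrocytes that is also found in oligodendrocytes. Its level was 120 and 117 FPKM in the control pair, against 76.6 and 85.6 FPKM in the cKO pair. The controls lay close together and above both cKO libraries, at means of 119 ± 2.20 against 81.1 ± 6.40 (SD, n = 2 each). Kcnj10 fell by 0.55 ± 0.18, or 1.46-fold (adjusted p = 0.0488). This call is at the threshold: it did not pass without any 1 of the 4 libraries (adjusted p from 0.0515 without cKO 2 to 0.388 without cKO 1), nor with median-of-ratios scaling (0.0565). Beside it, 11 of 12 oligodendrocyte markers fell, with a summed level of 16518 and 18779 FPKM in the control pair, against 6719 and 10545 FPKM in the cKO pair. No marker of that list was at 0, and its part in the Kcnj10 result was not tested.

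Aqp4 encodes the water channel aquaporin-4, which astrocytes concentrate in their endfeet at blood vessels. It measured 226 and 219 FPKM in the control pair, but 125 FPKM in cKO 1 and 196 in cKO 2. Both cKO libraries were below both controls, but cKO 2 lay nearer to the controls than to cKO 1. The fold change of −0.51 ± 0.22 did not pass (adjusted p = 0.132), and it was −0.19 without cKO 1 (0.920) and −0.83 without cKO 2 (0.00800). Mlc1, a membrane protein of astrocyte contacts, measured 80.1 and 96.1 FPKM in the control pair, against 105 and 121 FPKM in the cKO pair. These groups did not overlap, and the fold change of 0.35 ± 0.19 did not pass (adjusted p = 0.246). Slc4a4, the sodium bicarbonate cotransporter NBCe1, overlapped between groups, at 65.3 and 51.0 FPKM in the control pair, against 58.1 and 76.9 FPKM in the cKO pair. The ratio of Aqp4 to Kcnj10, also chosen after the values were seen, overlapped too, at 1.88 and 1.87 in the controls and 1.63 and 2.28 in the cKO libraries.

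Of 4 surface genes, 1 rose and 3 did not pass, with a median of 0.38. Gpc5 (chr14:115491437-116924414) encodes glypican-5, a heparan sulfate proteoglycan held to the membrane by a lipid anchor. It measured 11.0 and 10.2 FPKM in the control pair, against 17.1 and 16.8 FPKM in the cKO pair. Each pair lay close together, at means of 10.6 ± 0.579 against 17.0 ± 0.244 (SD, n = 2 each), and the pairs were well apart. Gpc5 rose by 0.63 ± 0.15, or 1.55-fold (adjusted p = 0.00394). Its fold change of 0.62 without cKO 1 did not pass (adjusted p = 0.0730), and it passed without each of the other libraries. Fgfr3, a fibroblast growth factor receptor of astrocytes and their precursors, measured 50.5 and 52.4 FPKM in the control pair, against 68.5 and 76.3 FPKM in the cKO pair. Both cKO libraries were above both controls, with a fold change of 0.48 ± 0.17 just outside the threshold (adjusted p = 0.0656). Cldn10, a claudin of cell junctions, was at 37.3 and 40.1 FPKM in the control pair, against 48.6 and 45.5 FPKM in the cKO pair. Ntsr2, a neurotensin receptor, was highest in control 2 at 145 FPKM, with 95.4 FPKM in control 1 and 87.8 and 104 FPKM in the cKO libraries, so that its groups overlapped.

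None of the 3 intermediate filament genes, nor Fabp7 grouped with them, passed, and 1 of these 4 (Gfap) had an unadjusted p under 0.05. Gfap (chr11:102748650-102758514) encodes the filament protein by which astrocytes are most often recognised. It was the third most abundant of the 32 genes, at 758 and 938 FPKM in the control pair, but 351 FPKM in cKO 1 and 723 in cKO 2. Both cKO libraries were below both controls, with cKO 2 close to control 1 and cKO 1 far below the rest. The fold change of −0.74 ± 0.29 did not pass (adjusted p = 0.0965, 95% interval −1.33 to −0.15). It was −1.26 without cKO 2 (adjusted p = 1.24e-04) and −0.22 without cKO 1 (0.914), so the size of the difference rests on cKO 1. The result also passed with a stricter filter of 5 FPKM (0.0399), with robust moderation of the variances (0.0296) and without a trend of variance on level (0.0231). It did not pass under TPM (0.169), quantile (0.158) or median-of-ratios scaling (0.181). Nor did it pass with low genes not filtered (0.412), with short transcripts included (0.339) or with replicate number as a block (0.253).

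Vim encodes vimentin, a filament protein of immature and reactive astrocytes and of vessels and meninges. It measured 66.7 and 71.9 FPKM in the control pair, against 62.8 and 72.2 FPKM in the cKO pair. These groups overlapped, at a fold change of −0.04 ± 0.18 (adjusted p = 0.923, 95% interval −0.39 to 0.32). The ratio of Gfap to Vim was 11.4 and 13.1 in the controls, 5.59 in cKO 1 and 10.0 in cKO 2, again with cKO 1 apart; this ratio was chosen after the values were seen. Nes, the filament protein nestin of neural progenitors, was low, at 4.77 and 3.99 FPKM in the control pair, against 3.68 and 3.37 FPKM in the cKO pair. Fabp7, a fatty acid binding protein of radial glia and young astrocytes, had levels of 358 and 404 FPKM in the control pair, against 563 and 508 FPKM in the cKO pair. Both cKO libraries lay above both controls, and the fold change of 0.49 ± 0.24 did not pass (adjusted p = 0.211).

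**Figure D2:**
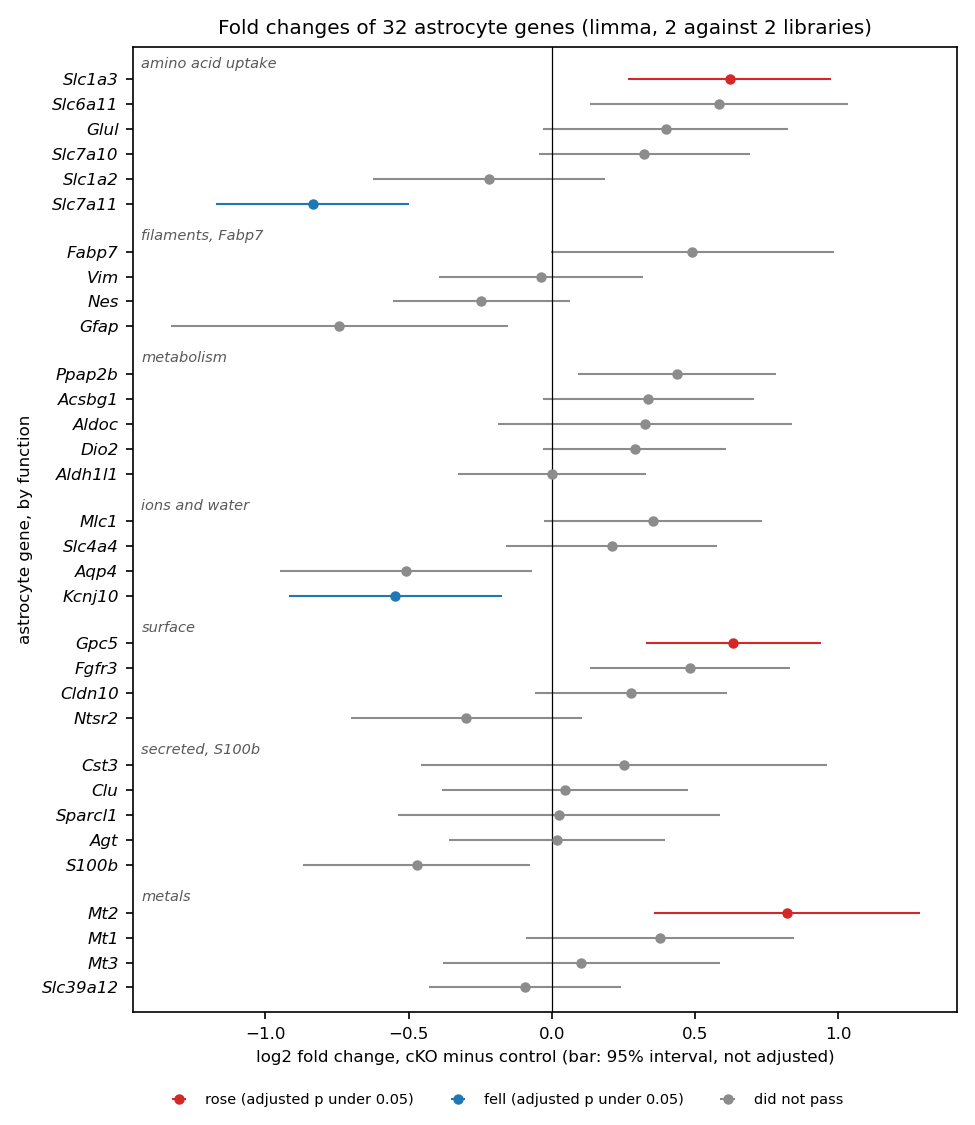
Log2 fold change of each of the 32 genes, cKO minus control, with its unadjusted 95% interval, from limma on 2 against 2 libraries. Red marks the 3 genes that rose (Slc1a3, Gpc5, Mt2), blue the 2 that fell (Slc7a11, Kcnj10) and grey the 27 that did not pass; the Gfap interval, −1.33 to −0.15, is among the widest.

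Among 5 genes of lipid, folate, sugar and hormone metabolism none passed, and 1, Ppap2b, had an unadjusted p under 0.05. The median log2 fold change was 0.33, and in 4 of the 5 both cKO libraries were above both controls, as in 24.3% of all genes tested. Ppap2b, a lipid phosphate phosphatase, measured 49.4 and 51.6 FPKM in the control pair, against 67.8 and 69.6 FPKM in the cKO pair. The pairs were tight and apart, with a fold change of 0.44 ± 0.17 (adjusted p = 0.0963). Acsbg1, an acyl-CoA synthetase, had 74.1 and 85.9 FPKM in the control pair, against 102 and 99.9 FPKM in the cKO pair. Its groups also stood apart, at a fold change of 0.34 ± 0.18 (adjusted p = 0.257).

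Aldoc encodes aldolase C, the brain form of a glycolytic enzyme. Its level was 426 and 509 FPKM in the control pair, against 628 and 542 FPKM in the cKO pair, with a narrow gap between control 2 and cKO 2. The fold change was 0.33 ± 0.25 (adjusted p = 0.466). Aldh1l1 encodes a folate enzyme that serves as a general astrocyte marker. It measured 32.4 and 35.5 FPKM in the control pair, against 32.3 and 35.6 FPKM in the cKO pair. The values of the groups all but coincided, with a fold change of 0.00 ± 0.16 whose 95% interval was −0.33 to 0.33 (adjusted p = 0.999). Dio2, the deiodinase that makes active thyroid hormone, was low, at 3.18 and 2.48 FPKM in the control pair, against 3.21 and 4.16 FPKM in the cKO pair.

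The 5 genes of secreted proteins and S100b held the most abundant of the 32, and none passed; 1, S100b, had an unadjusted p under 0.05. S100b encodes a calcium-binding protein of astrocytes that is also made by oligodendrocytes. Its level was 161 and 178 FPKM in the control pair, against 118 and 125 FPKM in the cKO pair. Both cKO libraries lay below both controls, with a fold change of −0.47 ± 0.20 (adjusted p = 0.120) that passed under quantile scaling (0.0493). The other 4 genes had overlapping groups. Cst3, the protease inhibitor cystatin C, measured 1521 and 2239 FPKM in the control pair, against 2363 and 2041 FPKM in the cKO pair, so that control 1 was lowest. Sparcl1, the matrix protein hevin, was the second most abundant at 837 and 790 FPKM in the control pair, against 789 and 866 FPKM in the cKO pair. Clu, the secreted chaperone clusterin, lay at 190 and 231 FPKM in the control pair, against 201 and 233 FPKM in the cKO pair. Agt, angiotensinogen, measured 84.2 and 107 FPKM in the controls and 95.9 FPKM in each cKO library.

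The last 4 genes concern metals: 3 metallothioneins, small cysteine-rich proteins that bind zinc and copper, and Slc39a12, a zinc transporter. Mt3, Mt2 and Mt1 lie side by side within 27.7 kb of chromosome 8 on mm9. Transcription of Mt1 and Mt2 is induced by zinc through metal response elements bound by the factor MTF1. The stretches around the start sites of all 3 metallothionein genes are shown because these neighbours differ in the letters of that element. They run from 250 bases before to 30 bases after each annotated start, from RefSeq on GRCm38.p6, plus strand, 5′ to 3′. Capitals mark matches to the core of the element, TGCACNC or TGCGCNC, on either strand; the search was for letters only and did not test binding.
Mt1 chr8:94178839-94179118: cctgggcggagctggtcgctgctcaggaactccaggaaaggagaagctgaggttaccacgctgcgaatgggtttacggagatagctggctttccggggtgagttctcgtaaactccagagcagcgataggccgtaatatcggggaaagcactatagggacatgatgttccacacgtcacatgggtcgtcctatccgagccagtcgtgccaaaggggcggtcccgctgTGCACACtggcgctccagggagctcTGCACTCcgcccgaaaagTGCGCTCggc
Mt2 chr8:94172368-94172647: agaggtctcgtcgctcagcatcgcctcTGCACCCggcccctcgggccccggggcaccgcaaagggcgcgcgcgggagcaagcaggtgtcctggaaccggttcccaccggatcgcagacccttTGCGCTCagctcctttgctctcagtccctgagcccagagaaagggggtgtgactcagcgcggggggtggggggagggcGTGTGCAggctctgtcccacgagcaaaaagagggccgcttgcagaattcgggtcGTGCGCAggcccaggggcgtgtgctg
Mt3 chr8:94152357-94152636: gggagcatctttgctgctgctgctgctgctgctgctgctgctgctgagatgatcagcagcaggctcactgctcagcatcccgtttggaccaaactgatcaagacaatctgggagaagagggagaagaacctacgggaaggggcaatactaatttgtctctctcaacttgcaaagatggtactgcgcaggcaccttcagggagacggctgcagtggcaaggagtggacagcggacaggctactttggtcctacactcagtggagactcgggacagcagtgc
Mt1 held 3 matches, Mt2 held 4 and Mt3 held 0. Counted from the annotated start, those of Mt1 began at bases −23, 3 and 21. Those of Mt2 began at −223, −128, −50 and 5, so in both genes some lie after the start. Bases outside these windows were not searched, so the counts are not totals of the metal response elements of these genes. Of 32851 RefSeq promoters of the same length, 24.1% held at least 1 match, 1.73% at least 3 and 0.405% at least 4. A match describes the sequence, and a window without one says only that these letters are not in it.

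Mt2 (chr8:96696518-96697467 on mm9) measured 189 and 192 FPKM in the control pair, but 268 FPKM in cKO 1 and 426 in cKO 2. The controls were close to each other and below both cKO libraries, which differed from each other, at means of 191 ± 2.04 against 347 ± 112 (SD, n = 2 each). Mt2 rose by 0.82 ± 0.23, or 1.77-fold (adjusted p = 0.0149). The fold change was 0.49 without cKO 2 (adjusted p = 0.195) and 1.15 without cKO 1 (2.33e-04), and it did not pass without control 1 (0.81, 0.197) or control 2 (0.83, 0.153). It also did not pass under TPM scaling (0.0645) or quantile scaling (0.114).

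Mt1 measured 237 and 302 FPKM in the control pair, against 307 and 394 FPKM in the cKO pair. Its groups did not overlap, by a narrow gap, and the fold change of 0.38 ± 0.23 did not pass (adjusted p = 0.330). Mt3, the form most typical of brain, measured 272 and 378 FPKM in the control pair, against 402 and 296 FPKM in the cKO pair. It overlapped, with the libraries of each group on opposite sides, at a fold change of 0.10 ± 0.24 (adjusted p = 0.839, 95% interval −0.38 to 0.59). The ratio of Mt2 to Mt1, chosen after the values were seen, was 0.799 and 0.636 in the controls and 0.871 and 1.08 in the cKO libraries, without overlap. The 3 transcripts are short and alike, and how reads that match several of them were assigned is not given in the sources used here, so their separate levels are uncertain. Slc39a12 was at 32.2 and 29.0 FPKM in the control pair, against 24.9 and 32.7 FPKM in the cKO pair, with overlap.

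The cKO libraries were then read singly against the control mean. Of the 32 genes, 26 lay on the same side of the control mean in both cKO libraries. The libraries share that mean, and the count over all genes was not taken, so 26 cannot be called particular to this list. The median was 0.17 in cKO 1 and 0.19 in cKO 2. At least 1.5-fold from the control mean lay 6 genes in cKO 1 (18.8%, against 10.5% of all genes tested) and 5 in cKO 2 (15.6%, against 4.43%). In cKO 1 these were Slc1a3, Gpc5, Gfap, Aqp4, Kcnj10 and Slc7a11, and in cKO 2 they were Slc1a3, Slc6a11, Gpc5, Mt2 and Slc7a11. Between the libraries of a group, 1 gene differed by at least 1.5-fold in the controls and 3 did in the cKO pair. These counts were not taken over all genes either.

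**Figure D3:**
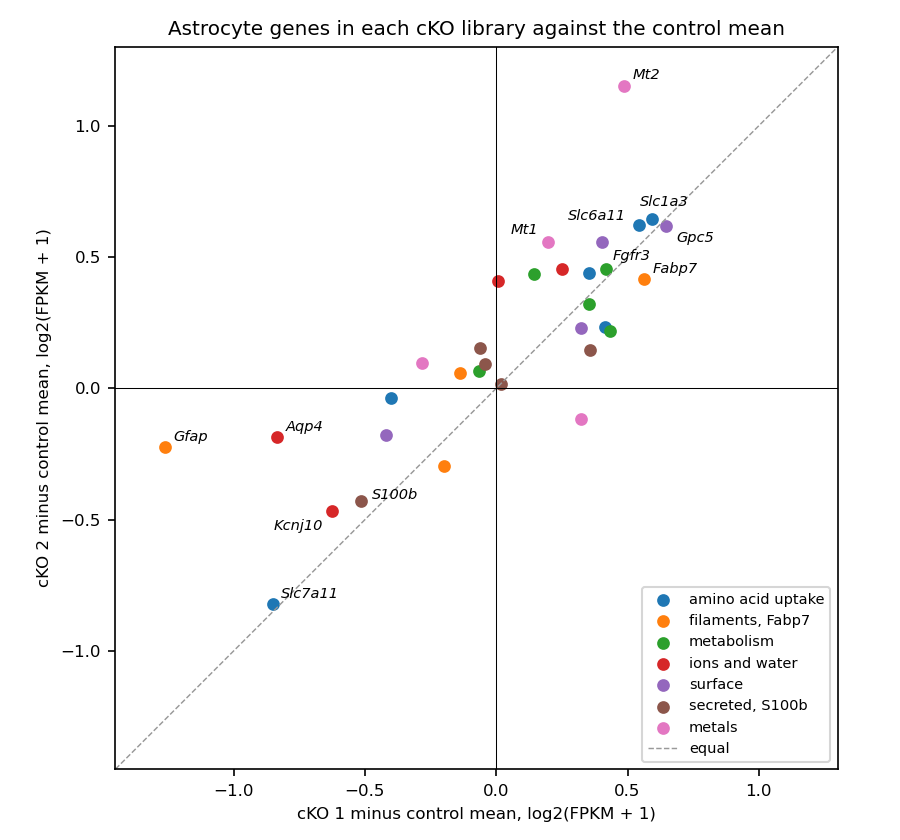
Each point is 1 of the 32 genes, at its difference from the control mean on log2(FPKM + 1) in cKO 1 (horizontal) and cKO 2 (vertical), coloured by function; the dashed line marks equal differences. Gfap (−1.26 and −0.22) and Aqp4 (−0.83 and −0.19) lie left of the line, Mt2 (0.49 and 1.15) above it, and Slc1a3 (0.60 and 0.65) and Slc7a11 (−0.85 and −0.82) on or near it.

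Leaving out each library in turn changed which of the 5 called genes passed. Slc7a11 passed each time and Kcnj10 never did. Slc1a3 passed without control 1 (0.73, adjusted p = 0.0426). It did not pass without control 2 (0.51, 0.202), without cKO 1 (0.65, 0.0827) or without cKO 2 (0.60, 0.0557), nor under quantile scaling (0.55, 0.0555). The direction of all 5 held with any 1 library left out. Leaving out a library leaves its group with 1 sample, which is assumed to vary like the other group.

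**Figure D4:**
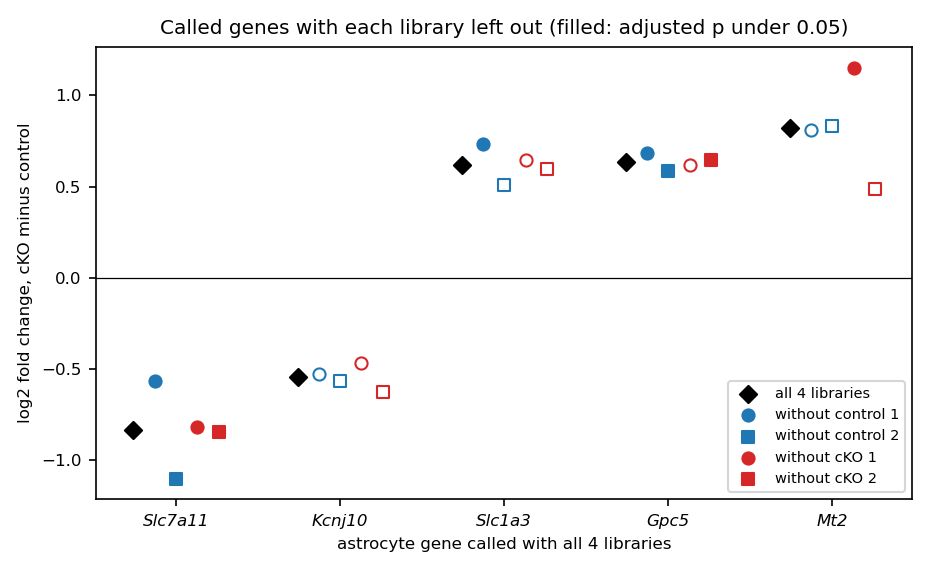
Log2 fold change of the 5 genes called with all 4 libraries (black diamonds), and with each library left out (blue, a control; red, a cKO library); filled symbols passed at an adjusted p under 0.05. Slc7a11 is filled throughout, Kcnj10 is filled only with all 4 libraries, and Mt2 runs from 0.49 to 1.15.

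Of the 32 genes, 27 had 1 annotated transcript and 5 had several. Gfap was nearly all NM_010277, which made up 94.2% and 95.6% of the gene in the controls and 96.3% and 95.3% in the cKO libraries. The other transcript of Gfap, NM_001131020, measured 44.4 and 41.3 FPKM in the control pair, but 12.8 FPKM in cKO 1 and 34.2 in cKO 2, again with cKO 1 lowest. For Slc1a2, NM_001077515 held 78.8% and 76.4% of the gene in the controls and 75.2% and 72.0% in the cKO libraries. This share was lower in both cKO libraries, by a margin no larger than that between the controls for cKO 1. The share of NM_001136260 in Slc4a4 was 82.4% and 83.6% in the controls and 87.6% and 89.0% in the cKO libraries, without overlap. Fgfr3 shows how unsure such splits can be: NM_008010 went from 34.3% in control 1 to 0.0389% in control 2, while the sum of the gene differed little between these libraries. Cldn10 was almost wholly NM_021386, from 92.4% to 100% of the gene.

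Other genes of astrocyte biology were taken from a list of 30, also drawn up with earlier results known. Of these 28 were tested: 5 rose, 1 fell and the median was 0.17, moving to 0.10 without control 1 and to 0.08 without cKO 2. Their 17.9% that rose stands against 4.13% of all genes, and their 3.57% that fell against 6.54%. Mfge8, which encodes a bridging protein for uptake of dying cells, measured 18.3 and 22.1 FPKM in the control pair, against 48.9 and 37.4 FPKM in the cKO pair, and rose by 1.05 ± 0.17 (adjusted p = 2.31e-05). Lfng, a modifier of Notch receptors, measured 8.00 and 8.77 FPKM in the control pair, against 13.1 and 16.0 FPKM in the cKO pair, and rose by 0.72 ± 0.15 (0.00121). F3, tissue factor, rose by 0.68 ± 0.16 (0.00321), Grm3, a metabotropic glutamate receptor, by 0.55 ± 0.15 (0.0133), and Slc25a18, a mitochondrial glutamate carrier, by 0.52 ± 0.17 (0.0439). Daam2, a Wnt pathway protein also active in oligodendrocyte precursors, measured 14.9 and 18.7 FPKM in the control pair, against 6.84 and 11.3 FPKM in the cKO pair, and fell by 0.85 ± 0.17 (6.57e-04). In each of these 6 the groups did not overlap. Of the 5, 3 rose without cKO 1 and 2 without cKO 2, and Mfge8 and Lfng were among them both times. Daam2 did not pass without cKO 1. With low genes not filtered, limma called 0 genes of this list and of the 4 lists that follow it; 8 of the 30 then had an unadjusted p under 0.05, against 18.3% of all genes, as did 3 of 15 fate regulators, 4 of 15 genes of the glutamate cycle, 3 of 20 of glycolysis and 6 of 16 reactive genes.

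Regulators of glial fate gave no call. Of 15 listed, 12 were tested, 0 passed in limma, and 1, Sox2, had an unadjusted p under 0.05. Sox2 measured 32.4 and 35.8 FPKM in the control pair, against 26.5 and 27.2 FPKM in the cKO pair, at −0.33 ± 0.16 (adjusted p = 0.193). Sox9, a factor of glial specification, overlapped, at 8.01 and 8.84 FPKM in the control pair, against 7.01 and 13.03 FPKM in the cKO pair.

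In the glutamate and glutamine cycle outside the 32 genes, 15 genes were tested, of which 1 rose and 1 fell. Each is 6.67% of the list, while 4.13% of all genes tested rose and 6.54% fell. The share that fell is thus near the background, and the share that rose rests on 1 gene. Slc1a4, the neutral amino acid transporter ASCT1, measured 21.4 and 21.8 FPKM in the control pair, against 36.1 and 35.2 FPKM in the cKO pair, and rose by 0.70 ± 0.16 (adjusted p = 0.00234). Slc38a2, a sodium-coupled glutamine transporter, measured 39.1 and 34.5 FPKM in the control pair, against 24.5 and 24.8 FPKM in the cKO pair, and fell by 0.56 ± 0.16 (0.0175). Slc38a3, by which astrocytes release glutamine, measured 44.2 and 55.2 FPKM in the control pair, against 69.7 and 68.1 FPKM in the cKO pair; its 0.47 ± 0.17 did not pass (0.0761). Slc1a4 rose with any 1 library left out, and Slc38a2 passed when control 2 was left out but not when any of the other 3 was.

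Of 20 genes of glycolysis and lactate shuttling, 19 were tested, 0 rose and 1 fell. The share that fell, 5.26%, is near the 6.54% of all genes tested, of which 4.13% rose. Slc16a1, the lactate transporter MCT1 of oligodendrocytes, vessels and astrocytes, measured 45.1 and 42.5 FPKM in the control pair, against 25.3 and 25.4 FPKM in the cKO pair. Both pairs were tight and apart, and Slc16a1 fell by 0.77 ± 0.16 (adjusted p = 0.00104), also with any 1 library left out.

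Of 16 genes that reactive astrocytes raise, 9 were tested, 3 fell and 1 rose. These are 33.3% and 11.1% of the 9, against 6.54% and 4.13% of all genes tested. The median was −0.26, but its sign turned without control 1 (0.07), without cKO 1 (0.04) and with low genes not filtered (0.06, over 16 genes). Serpina3n, a protease inhibitor, measured 34.4 and 37.8 FPKM in the control pair, but 15.2 FPKM in cKO 1 and 27.6 in cKO 2, and fell by 0.78 ± 0.18 (adjusted p = 0.00334). Cd44, a hyaluronan receptor, measured 3.32 and 3.10 FPKM in the control pair, but 1.11 FPKM in cKO 1 and 2.51 in cKO 2, and fell by 0.63 ± 0.17 (0.0141). These values have the order seen in Gfap and Aqp4, with cKO 1 lowest, cKO 2 between and the controls highest. Cp, the copper-binding ceruloplasmin, fell by 0.65 ± 0.17 (0.00898). Hspb1, a small heat shock protein, measured 7.41 and 10.8 FPKM in the control pair, against 11.8 and 18.7 FPKM in the cKO pair, and rose by 0.67 ± 0.18 (0.00849). The groups did not overlap in any of these 4 genes. The count that fell was 1 without cKO 1, namely Cp, 2 without cKO 2 or without control 1, and 4 of 10 tested without control 2. None of the 4 genes passed under TPM, quantile or median-of-ratios scaling, where limma gave 5 of the 9 an unadjusted p under 0.05 each time.

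Markers of other cells in the cord moved as well. Their counts stand beside 4.13% of all genes tested that rose and 6.54% that fell. The oligodendrocyte list had a median of −1.21, and its median was −1.47 in cKO 1 and −0.92 in cKO 2. With 1 library left out, 7 to 12 of its 12 genes fell, and 2 fell with low genes not filtered. Of 8 markers of oligodendrocyte precursors, 5 fell and 1 rose, with a summed level of 508 and 649 FPKM in the control pair, against 323 and 348 FPKM in the cKO pair. Gpr17, Neu4, Olig1, Olig2 and Sox10 fell. The other markers had fold changes above 0: Pdgfra (0.22) and Cspg4 (0.26), which did not pass, and Cacng4 (0.50), which rose. The list thus did not move in 1 direction. Of these 8, 2 fell without control 2, 3 fell without cKO 1, and 0 rose with any 1 library left out. Of 12 neuronal markers 2 rose and 0 fell, with a median of 0.39 and a sum of 1706 and 1654 FPKM in the control pair against 2560 and 2145 FPKM in the cKO pair. The number of neuronal markers that rose was 0 without cKO 1 and 4 without cKO 2, and 1 with either control left out. Of 10 microglial markers 1 rose and 3 fell, and without cKO 2 these counts were 0 and 1. Of 10 endothelial markers 0 passed in limma and 4 had an unadjusted p under 0.05, against 24.2% of all genes. FPKM are shares of a library, so the lower level of abundant oligodendrocyte genes and the values of the astrocyte genes are not independent, and the part of cell makeup in the astrocyte results was not tested.

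**Figure D5:**
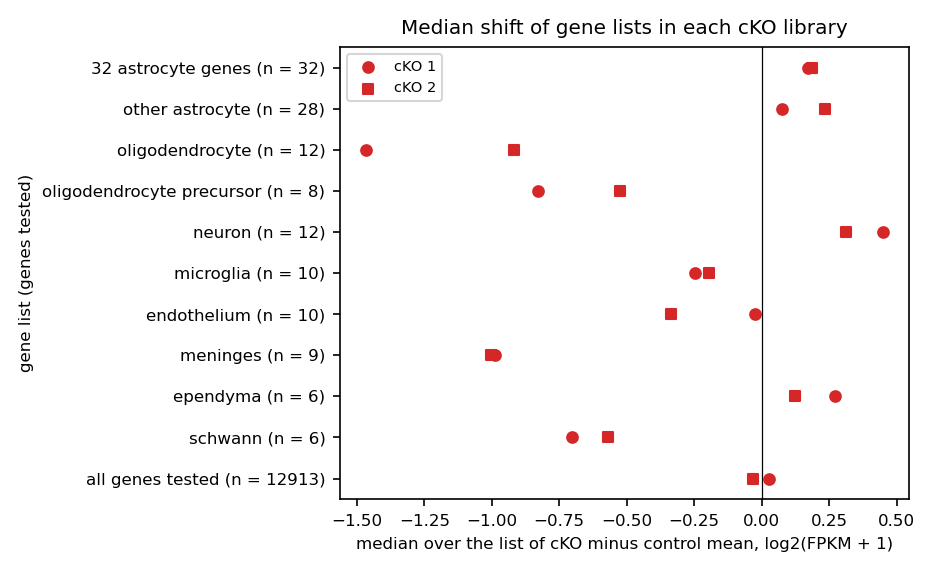
Median over each gene list of the difference from the control mean on log2(FPKM + 1), for cKO 1 (circles) and cKO 2 (squares), with the number of genes tested. The 32 astrocyte genes lie at 0.17 and 0.19, the oligodendrocyte markers at −1.47 and −0.92, and all genes tested at 0.03 and −0.03.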

How the data were processed

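Frozen spinal cords gave total RNA by Trizol extraction, which entered TruSeq RNA library preparation, per the labels' protocols. The deposited tables give FPKM per transcript, and the submitters' processing notes list CASAVA, TopHat, Cufflinks, Cuffdiff and the build mm9, with no roles or versions. The deposited coverage column was used only to find relative depth, as the constant ratio of coverage to FPKM in a library; read totals were not used here. Of 28107 rows, 315 whose estimate was not marked as successful in every library and 763 shorter than 300 bases were left out, and the rest were summed per gene symbol. Gene sums with a mean of at least 1 FPKM were tested as log2(FPKM + 1) with limma 3.58.1 in R 4.3.3 (2 against 2 libraries, no covariate, moderated variances with a trend on level, Benjamini-Hochberg adjustment). The fit was tested on simulated data. Groups and replicate numbers come from the sample titles. Members and lists were chosen with earlier results of these data known. Full values are given for genes that passed, for those whose groups do not overlap with a log2 fold change of at least 0.3 in size, and for a fixed set of well known astrocyte genes; of the other lists, up to 4 genes with the smallest p and, where few passed, each gene that passed. Alternatives changed the pseudocount, filter, scaling, moderation, summing, pairing and libraries. Transcript starts in the tables were raised by 1 to count from 1.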

Additional observations from a re-analysis of the deposited data

How the results depend on the processing

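Against 3 genes that rose and 2 that fell, limma called 0 and 0 with no filter, with all rows summed and on transcript rows. Every transcript of the 32 genes was long enough to enter the sums either way, so the folds of the sums did not move; the prior degrees of freedom of the spread went from 36.3 to 4.11, 4.15 and 2.71, and the counts over all genes from 533 and 845 to 22 and 33, 23 and 30, and 11 and 9. Quantile scaling gave 1 that rose and 3 that fell (310 and 426 over all genes), so more fell than rose. Median-of-ratios scaling gave 3 and 1 (389 and 563), and TPM scaling 2 and 2 (204 and 460). Without a variance trend 6 rose and 3 fell (485 and 761). With 1 library left out, 1 to 2 rose and 1 to 3 fell; over all genes 107 rose and 277 fell without cKO 1.

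The median of the 32 fold changes was 0.25 with a minimum of 5 FPKM, 0.20 under TPM scaling, 0.068 under quantile scaling, 0.27 on transcript rows and 0.13 to 0.24 with 1 library left out. Slc7a11 has no value at a minimum of 5 FPKM.

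The replicate block left 2 that rose and 1 that fell (351 and 645 over all genes); Mt2 (adjusted p = 0.0518) and Kcnj10 (0.139) were lost. Same-numbered libraries deviated with a correlation of −0.241, and nothing in the labels says that the numbers pair animals. The crossed pairing, chosen after seeing the data, gave 7 that rose and 5 that fell (943 and 1235 over all genes).

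Direction reversed under at least 1 alternative in 9 of the 32 genes, none of which passed. Of these, Agt, Clu, Cst3, Sparcl1, Ntsr2 and Slc39a12 are given by their levels alone. Aldh1l1 was −0.029 under TPM scaling, −0.053 under quantile scaling and −0.067 to 0.068 with 1 library left out. Mt3 was −0.070 under quantile scaling and −0.13 to 0.34 with 1 library left out. Vim was −0.14 to 0.060 with 1 library left out. Apart from changes whose cause is given above, the cause was not tested. Control 2 was the shallowest library, which limits the precision of low genes such as Slc7a11.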
